A study of Mus musculus with 3 samples.

Results

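The miR-183, miR-96 and miR-182 cluster is a group of 3 miRNA hairpins that lie close together on mouse chromosome 6 and are encoded on the same strand. Its 3 members here, mmu-miR-183-5p, mmu-miR-96-5p and mmu-miR-182-5p, are the 5p arms of these hairpins. They were chosen by name from the 1138 mature miRNAs with deposited values, with their read counts in these libraries already known. The levels of the 3 miRNAs are therefore given as a description, without a test. miRNA-Seq was performed on TA muscles, the tibialis anterior of the shin, from wild type C57BL/6 mice aged 10 weeks. For the study as a whole, the authors state that the mice were male, with an age range that starts at 10 weeks. Muscles were taken on day 0 and on days 1 and 3 after injury with cardiotoxin (CTX), a venom toxin that destroys myofibers. The authors call the day 0 muscles uninjured and name saline as a control injection. The sources used here do not say whether the day 0 muscles received saline. Each of the 3 libraries, 1 per time point, was a pool of 4 samples. There was thus no replicate check, and a difference between time points cannot be told apart from a difference between pools or library preparations. Intervals below are 95% intervals of the counting error alone.

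An miRNA is cut from a hairpin precursor and guides the silencing of mRNAs that pair with its seed, bases 2 to 8 from the 5′ end. The 3 miRNAs of this cluster are known for high levels in sensory organs such as the retina, the inner ear and the sensory ganglia, where mutations in the seed of miR-96 cause hearing loss. Outside sensory tissue, miR-182 is known to be induced in activated T helper cells, and all 3 are known to repress Foxo1, a transcription factor that in muscle promotes atrophy genes. Members of a cluster are commonly thought to be transcribed together, so it can be asked of these data whether the 3 levels moved together after injury.

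The mature sequences are shown because the 3 members are related but do not share a seed. They are RefSeq sequences on GRCm38.p6, written 5′ to 3′ with the seed in capitals.
mmu-miR-183-5p: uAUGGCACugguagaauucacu
mmu-miR-96-5p: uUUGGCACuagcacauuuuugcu
mmu-miR-182-5p: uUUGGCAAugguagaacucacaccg
The seeds of miR-96-5p and miR-182-5p had the same base at 6 of 7 positions, as did those of miR-96-5p and miR-183-5p. The seeds of miR-182-5p and miR-183-5p matched at 5 of 7. No other listed miRNA with a sequence in the RefSeq table (953 of 1138) had the seed of any member. Over their whole length miR-182-5p and miR-183-5p were the most alike, with the same base at 18 of the 22 positions compared from the 5′ end and a shared run of 8 bases at positions 9 to 16. The corresponding figures were 13 of 22 positions for miR-183-5p and miR-96-5p and 12 of 23 for miR-182-5p and miR-96-5p. At least 7 edits separated each pair of members, and at least 8 separated a member from any other listed miRNA with a sequence, so none of these was a near-identical copy.

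The hairpins are shown with both mature arms in capitals, the 5p arm first, because the reads of the 2 arms are compared below.
Mir183: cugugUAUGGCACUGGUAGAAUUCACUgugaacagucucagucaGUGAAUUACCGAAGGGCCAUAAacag
Mir96: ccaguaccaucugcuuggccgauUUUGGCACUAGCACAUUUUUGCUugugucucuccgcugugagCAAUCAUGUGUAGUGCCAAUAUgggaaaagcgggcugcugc
Mir182: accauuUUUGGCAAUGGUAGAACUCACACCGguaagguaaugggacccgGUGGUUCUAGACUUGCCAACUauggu
On GRCm38 all 3 lie on the minus strand, Mir183 at chr6:30169668-30169737, Mir96 at chr6:30169446-30169551 and Mir182 at chr6:30165918-30165992. The order of transcription is thus Mir183, Mir96 and Mir182. Only 116 bases separate Mir183 from Mir96, whereas 3453 bases separate Mir96 from Mir182, and the whole span is 3820 bases. In the GENCODE M21 annotation no other gene overlaps this span, so the hairpins are intergenic. The nearest protein-coding genes are Nrf1, a transcription factor gene 12460 bases away on the plus strand, and Ube2h, a ubiquitin-conjugating enzyme gene 41552 bases away on the minus strand.

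**Figure D1:**
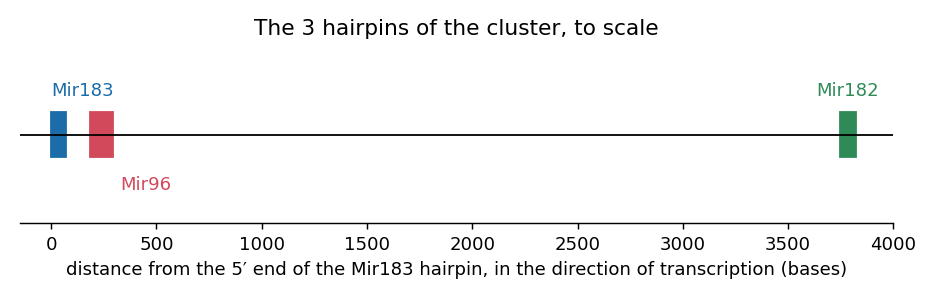
The 3 hairpins of the cluster drawn to scale along the distance in bases from the 5′ end of the Mir183 hairpin, in the direction of transcription. Mir183 and Mir96 lie 116 bases apart and Mir182 begins 3453 bases beyond Mir96.

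The 3 libraries held 6421056 to 9795076 reads assigned to miRNAs, and levels are given as CPM, the reads of an miRNA per 1000000 reads of its library. A read covers a whole miRNA, so levels were not divided by length, and differences in ligation between miRNAs were not measured. A floor of 3 reads corresponded to 0.306 to 0.467 CPM. As a check of the tissue, miR-1a-3p, the main miRNA of mature myofibers, stood at 233587 CPM on day 0. CPM is a share of the library, and the 10 most abundant miRNAs took 78.4% of it on day 0, against 61.6% and 64.1% on days 1 and 3. The median log2 fold change of the 393 miRNAs that had 10 or more reads on both days 0 and 1 was 0.90. It was 0.93 for day 3 relative to day 0 (407 miRNAs) and -0.05 for day 3 relative to day 1 (476 miRNAs). Changes relative to day 0 are therefore also given after subtraction of this median. In a bulk tissue, a change in the number of cells of a type and a change in the level per cell cannot be told apart.

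All 3 members were at a low level in uninjured muscle and on day 1, and in CPM all were at least 32.0-fold higher on day 3 than on day 0. Together they had 118 reads in the day 0 library, 174 in that of day 1 and 4810 in that of day 3, equal to 13.9 CPM (11.5 to 16.6), 27.1 CPM (23.2 to 31.4) and 491 CPM (477 to 505). The sum on day 1 was 1.95 times that on day 0 (1.55 to 2.47), which on the log2 scale was within 0.06 of the median change of all miRNAs. The sum on day 3 was 35.4 times that on day 0 (29.5 to 42.5) and 18.1 times that on day 1 (15.6 to 21.1). On the log2 scale the day 3 sum was 5.15 above day 0, and 4.21 above the median of all miRNAs. With median-of-ratios factors, the lowest of the scalings used, the log2 fold changes on day 3 were 3.88 for miR-183-5p, 4.47 for miR-96-5p and 4.10 for miR-182-5p. Most of the difference therefore lay between the day 1 and the day 3 library.

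miR-183-5p, cut from the first hairpin of the cluster, had 57 reads on day 0, with 29 on day 1 and 2103 on day 3. These reads corresponded to 6.70 CPM (5.07 to 8.68), 4.52 CPM (3.02 to 6.49) and 215 CPM (206 to 224). It was the only member with a lower level on day 1 than on day 0, and the intervals of these 2 libraries overlapped. Relative to day 0, its log2 fold change was -0.57 for day 1 (-1.21 to 0.08), an interval that contains 0, and 5.00 for day 3 (4.62 to 5.38). After subtraction of the median of all miRNAs, the values were -1.47 and 4.07. With TMM or median-of-ratios factors in place of the library total, the day 1 value was -1.51 or -1.61. From day 1 to day 3 the difference was 5.57 (5.04 to 6.10), a fold of 47.5, which was the largest of the 3 members and ranked 8 of 583 miRNAs with at least 10 reads in either library.

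miR-96-5p, from the middle hairpin, was the least abundant member on day 0 and on day 3. It had 7 reads in the day 0 library, 28 in that of day 1 and 387 in that of day 3, or 0.823 CPM (0.331 to 1.70), 4.36 CPM (2.90 to 6.30) and 39.5 CPM (35.7 to 43.6). The intervals of the 3 libraries did not overlap. The day 1 library differed from day 0 by a log2 fold change of 2.41 (1.21 to 3.60) and the day 3 library by 5.59 (4.51 to 6.66), which were 1.50 and 4.65 above the median of all miRNAs. These folds rest on 7 reads on day 0, and the interval of the fold on day 3 ran from 22.7 to 101.

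miR-182-5p, from the last hairpin, had 54 reads on day 0, with 117 on day 1 and 2320 on day 3. In CPM these were 6.35 (4.77 to 8.28), 18.2 (15.1 to 21.8) and 237 (227 to 247), and again no intervals overlapped. The log2 fold change was 1.52 between days 0 and 1 (1.06 to 1.99) and 5.22 between days 0 and 3 (4.83 to 5.61). It exceeded the median of all miRNAs by 0.62 on day 1 and by 4.29 on day 3. With TMM or median-of-ratios factors the day 1 value was 0.58 or 0.48, below a 2-fold difference. From day 1 to day 3 its log2 difference was 3.70 (3.43 to 3.97), against 3.18 (2.63 to 3.73) for miR-96-5p.

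**Figure D2:**
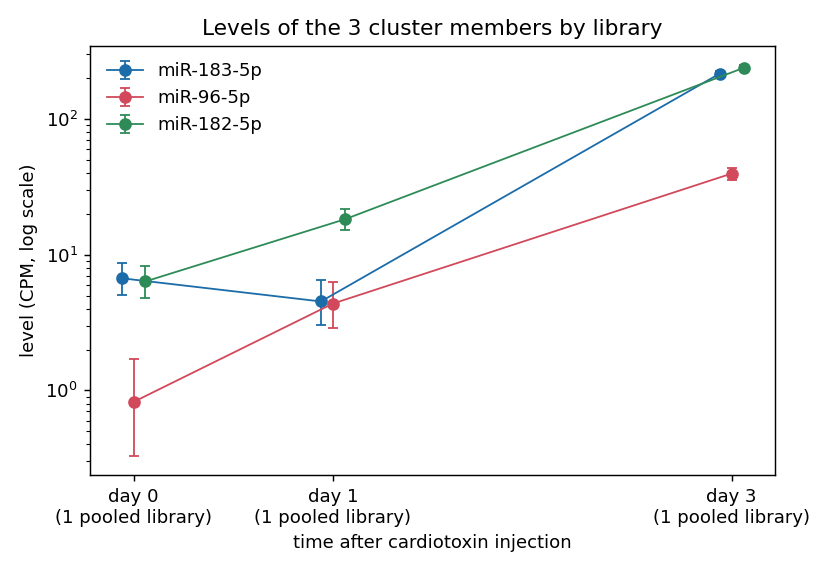
Levels of the 3 members in CPM on a log axis against days after CTX injection, with points for each library and bars for the 95% counting interval (lines join the libraries of a member). On day 1 miR-182-5p stands above the other members at 18.2 CPM, and on day 3 miR-183-5p (215 CPM) and miR-182-5p (237 CPM) stand above miR-96-5p (39.5 CPM).

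On day 3, 3 of the 3 members were at least 2-fold higher than on day 0, a threshold that 58.5% of the 569 miRNAs with at least 10 reads in either library passed in CPM. On day 1, 2 of the 3 passed it, miR-96-5p and miR-182-5p, beside 55.3% of 532 miRNAs. With TMM factors these percentages were 40.6% on day 3 and 35.2% on day 1, and miR-96-5p was then the 1 member past the threshold on day 1. Between day 1 and day 3, 3 of the 3 were at least 2-fold higher, beside 25.0% of 583 miRNAs. These counts are a description of the members, which were chosen with these values known. By size of fold on day 3 relative to day 0, miR-96-5p ranked 38, miR-182-5p 42 and miR-183-5p 48 among the 569 miRNAs. By number of reads among the miRNAs with at least 1 read in each library, miR-182-5p moved from rank 276 of 784 on day 0 to 276 of 915 on day 1 and 117 of 987 on day 3. The ranks of miR-183-5p were 271, 380 and 123, and those of miR-96-5p were 453, 385 and 231.

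**Figure D3:**
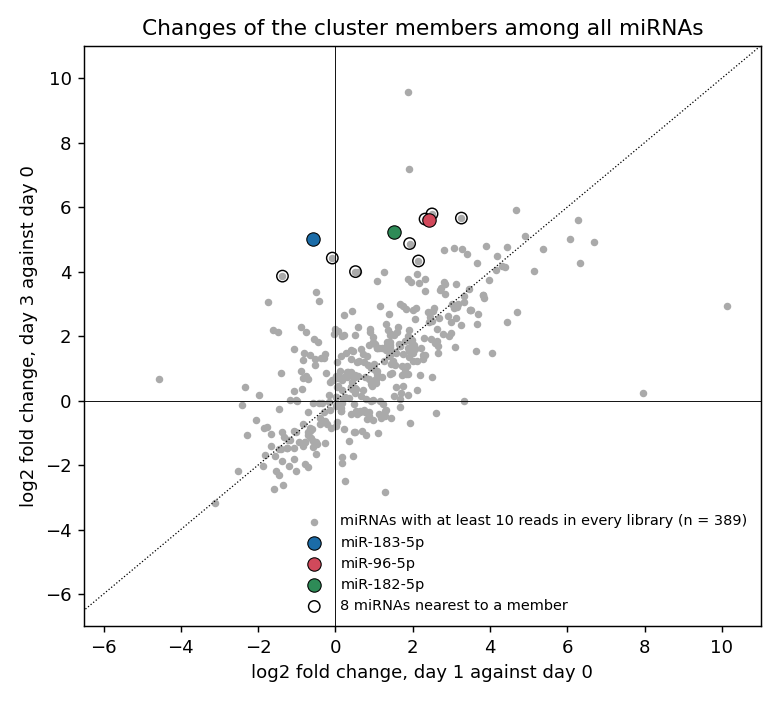
Log2 fold change on day 3 against that on day 1, both relative to the day 0 library, for the 389 miRNAs with at least 10 reads in every library (gray) and for the 3 members (colored). The members lie above the dotted line of equal change, at 5.00 to 5.59 on day 3 and -0.57 to 2.41 on day 1, and open circles mark the 8 miRNAs nearest to a member.

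The ratio of a pair of members within a library does not depend on how the libraries are scaled. On day 0, miR-182-5p and miR-183-5p were at a similar level, with a ratio of 0.947 (0.653 to 1.37). On day 1 the ratio was 4.03 (2.69 to 6.06), and on day 3 it was 1.10 (1.04 to 1.17). The log2 ratio on day 1 was thus 2.09 above that on day 0 (1.30 to 2.89), and on day 3 it differed from that on day 1 by -1.87 (-2.46 to -1.28). Between days 0 and 3 the difference was 0.22, with an interval of -0.32 to 0.76.

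A similar pattern was seen for miR-183-5p relative to its near neighbor miR-96-5p. This ratio uses the same miR-183-5p reads, 29 of them on day 1, and so is not independent of the first. On day 0 there were 8.14 reads of miR-183-5p for each read of miR-96-5p (3.71 to 17.9). The day 1 ratio was 1.04 (0.616 to 1.74), and the day 3 ratio was 5.43 (4.88 to 6.06). On the log2 scale the day 1 ratio was below that of day 0 by a difference of -2.97 (-4.33 to -1.62), and the day 3 ratio was above that of day 1 by 2.39 (1.63 to 3.16). For day 3 relative to day 0 the difference was -0.58 (-1.73 to 0.56), so that a change in either direction was not detectable at this depth.

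For miR-182-5p relative to miR-96-5p, whose hairpins are 3453 bases apart, the ratio in the libraries of days 0, 1 and 3 was 7.71 (3.51 to 17.0), 4.18 (2.77 to 6.31) and 5.99 (5.38 to 6.68). None of the 3 differences between libraries had an interval that left out 0. The log2 difference was -0.88 on day 1 relative to day 0 (-2.17 to 0.40), -0.36 on day 3 relative to day 0 (-1.51 to 0.78) and 0.52 on day 3 relative to day 1 (-0.09 to 1.14). These wide intervals do not show that the ratio was constant.

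The order of the members differed between the libraries accordingly. miR-183-5p made up 48.3% of the summed reads of the cluster on day 0 (39.5 to 57.2 by the Wilson method), whereas it made up 16.7% on day 1 (11.9 to 22.9) and 43.7% by day 3 (42.3 to 45.1). For miR-182-5p the shares were 45.8% (37.0 to 54.7), 67.2% (60.0 to 73.8) and 48.2% (46.8 to 49.6). miR-96-5p held 5.93% (2.90 to 11.7), 16.1% (11.4 to 22.3) and 8.05% (7.31 to 8.85). On day 0 miR-183-5p and miR-182-5p did not differ beyond their counting error and miR-96-5p was below both. On day 1 miR-182-5p was above the other 2, which did not differ beyond their counting error, and on day 3 the order was miR-182-5p, miR-183-5p and miR-96-5p with no overlap of intervals.

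**Figure D4:**
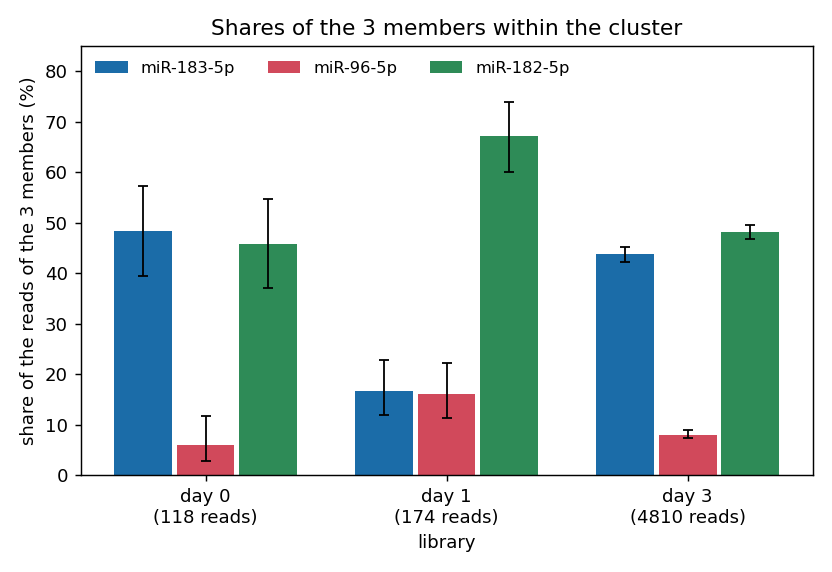
Share of each member in the summed reads of the 3 members (%) in each library, with bars for the 95% Wilson interval and the summed reads under each library. The day 1 library stands apart, with miR-182-5p at 67.2% and miR-183-5p at 16.7%, whereas days 0 and 3 show similar shares of these 2 members.

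The 3p arms of the hairpins, usually the less stable strand, were not used in choosing the members. Almost no reads came from miR-182-3p and miR-183-3p, whereas miR-96-3p was not analysed here. miR-182-3p had 0 reads in the day 0 library, 1 in that of day 1 and 8 in that of day 3, and miR-183-3p had 0, 0 and 3 reads. On day 3 miR-182-3p made up 0.344% of the reads of its hairpin (Wilson interval 0.174 to 0.677) and miR-183-3p made up 0.142% (0.0485 to 0.418). Where no read was seen, 3 reads of the total would be a share of 5.56% for miR-182-3p and 5.26% for miR-183-3p on day 0, and of 10.3% for miR-183-3p on day 1. The upper Wilson limits were 6.64%, 6.31% and 11.7%, so a difference in the share of the arms between libraries was not detectable at this depth.

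The spread of the members was set beside that of 18 other genomic clusters from a list of well-known clusters, as the range between the highest and the lowest log2 fold change of a cluster. On day 1 relative to day 0 the range was 2.97 in the miR-183 cluster and had a median of 1.00 in the others (0.04 to 8.17). Only the cluster of miR-532-5p was wider, and there miR-532-5p had 28 reads on day 0, with 23696 on day 1 and 244 on day 3. The 2.97 is the size of the difference between miR-183-5p and miR-96-5p, -2.97 (-4.33 to -1.62). Its place beside clusters of similar range, such as that of miR-17-5p (2.79), was therefore not resolved beyond counting error. The counts of wider clusters given here compare point values. On day 3 relative to day 0 the range was 0.58, and 14 of the 18 others were wider (median 1.18). Between days 1 and 3 the range was 2.39, beside a median of 0.51, and 4 clusters were wider. The range depends on the number of members and on their reads, and the members here had 7 to 57 reads on day 0. The listed clusters of miR-17-5p, miR-23a-3p, miR-23b-3p, miR-15b-5p and miR-29a-3p also hold miRNAs made from more than 1 locus. One of these, miR-24-3p, is in both the miR-23a-3p and the miR-23b-3p cluster. The ranges of these clusters thus mix loci. Among clusters defined from the annotation, with neighbors under 10 kb apart, 2 of 30 were wider on day 1 and 20 of 30 on day 3, and between days 1 and 3 the median was 1.17 and 5 of 30 were wider. Of the 5 others with exactly 3 miRNAs used, 0 were wider on day 1 and 3 on day 3.

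**Figure D5:**
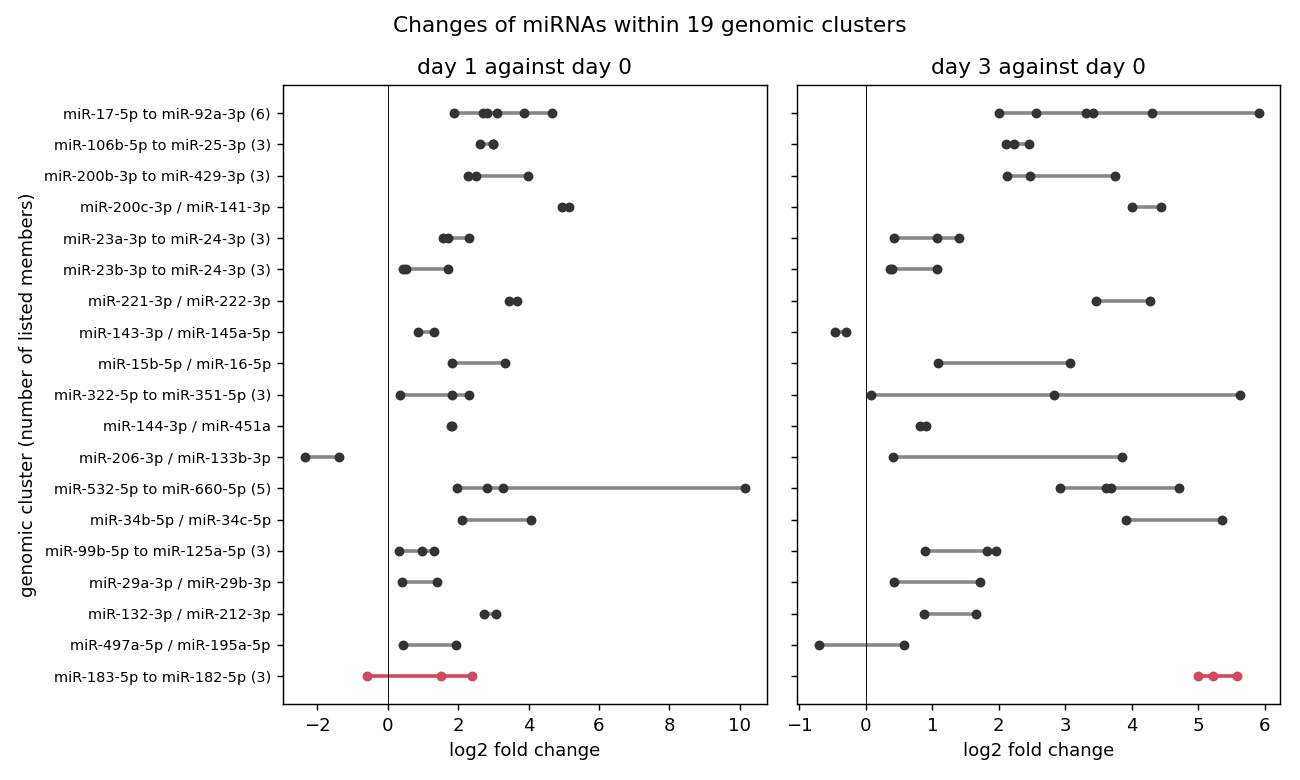
Log2 fold changes of the members of 19 genomic clusters on day 1 and on day 3, each relative to day 0, with a point for each miRNA and a line over the range of its cluster. The miR-183 cluster (red) spans -0.57 to 2.41 on day 1 and 5.00 to 5.59 on day 3.

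The clusters of miR-106b-5p, miR-93-5p and miR-25-3p, which lies in an intron of Mcm7, and of miR-200b-3p, miR-200a-3p and miR-429-3p, known from epithelial cells, also have 3 members and were compared member by member. Unlike those of the miR-183 cluster, none of these 6 miRNAs had a higher level on day 3 than on day 1. From day 1 to day 3 the log2 difference was -0.53, -0.38 and -0.87 for miR-106b-5p, miR-93-5p and miR-25-3p. For miR-200b-3p, miR-200a-3p and miR-429-3p it was -0.04 (-0.59 to 0.52), -0.16 (-0.81 to 0.49) and -0.24 (-0.48 to 0.00). These last 3 intervals reach 0, so the direction of change in the miR-200b cluster was not determined. Other clusters of the list also had every member higher on day 3 than on day 1. Among them were miR-206-3p and miR-133b-3p (5.23 and 2.74) and miR-34b-5p and miR-34c-5p (1.80 and 1.29). The 3-member cluster of miR-99b-5p, let-7e-5p and miR-125a-5p had smaller differences of 0.57, 0.99 and 0.49. On day 1 relative to day 0 the miR-106b and miR-200b clusters were already higher, by 2.62 to 2.98 and by 2.28 to 3.98. The median of all miRNAs for this comparison was 0.90. The members of the miR-106b cluster kept within 0.37 of each other on day 1 and 0.34 on day 3, at read counts of 95 to 21384. miR-429-3p went from 20 reads before injury to 239 on day 1 and 309 on day 3. It had fewer reads on day 0 than miR-183-5p and miR-182-5p, and its level on day 3, 31.5 CPM, was close to the 39.5 CPM of miR-96-5p.

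The miRNAs with the most similar pattern were found by the Euclidean distance in the pair of log2 fold changes on days 1 and 3, which share the day 0 library, over the 389 miRNAs with at least 10 reads in all 3 libraries. miR-483-3p was nearest to miR-183-5p, at a distance of 0.76, with 14, 10 and 344 reads on days 0, 1 and 3. It was followed by miR-206-3p, a miRNA of regenerating muscle (distance 1.40, with 105359, 30697 and 1763128 reads), and miR-154-3p (1.48, with 36, 39 and 664 reads). Only 1 miRNA lay within a distance of 1 of miR-183-5p. Nearest to miR-96-5p were miR-351-5p (0.10), miR-335-3p (0.23) and miR-1983 (0.85), and nearest to miR-182-5p were miR-449a-5p (0.53), miR-351-5p (0.89) and miR-34b-3p (1.09). The reads of miR-351-5p were 124, 466 and 7070. With 1 CPM added and miRNAs with 10 reads in any library, none of the 3 nearest to miR-96-5p stayed among its nearest. Between the members themselves the distance was 0.96 for miR-182-5p and miR-96-5p, 2.10 for miR-182-5p and miR-183-5p and 3.03 for miR-183-5p and miR-96-5p. As point values, the distances of both cluster partners from miR-183-5p exceeded the 1.40 of miR-206-3p. The 2.10 came mostly from day 1, where the log2 difference between miR-182-5p and miR-183-5p was 2.09 (1.30 to 2.89). This interval contains 1.40, so the order of miR-206-3p and miR-182-5p was not resolved beyond counting error.

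The markers of other cells that the tissue can hold were set beside the cluster, and their counts past 2-fold are to be read against those of all miRNAs. Of these, 55.3% were at least 2-fold higher and 12.0% at least 2-fold lower on day 1, and 58.5% and 10.0% on day 3. The 7 leukocyte miRNAs summed to 5493 CPM on day 0, 21499 on day 1 and 10003 on day 3, and 5 of them were at least 2-fold higher on each day. The median log2 fold change of the 7 was 2.54 on day 1 and 2.87 on day 3, beside 0.90 and 0.93 for all miRNAs. The most abundant, miR-150-5p of lymphocytes and miR-223-3p of myeloid cells, went from 4733 to 8307 and 3197 CPM and from 97.8 to 7815 and 1896 CPM. The 7 epithelial miRNAs summed to 28.9, 247 and 154 CPM, with 6 at least 2-fold higher on day 1 and 5 on day 3. Of these, miR-200c-3p had 4.47, 158 and 72.1 CPM and miR-203-3p, a miRNA of the skin, had 18.9, 27.1 and 32.6 CPM. Both sums were highest on day 1. For the epithelial list the median log2 fold change stood at 2.95 (day 1) and 2.47 (day 3). Of the leukocyte miRNAs, 5 of 7 were highest on day 1 and 2 on day 3, miR-146a-5p (345, 1999.5 and 2524 CPM) and miR-342-3p (139.9, 581 and 802 CPM). Of the epithelial miRNAs, 6 of 7 were highest on day 1 and 1 on day 3. The 3 members of the miR-183 cluster were highest on day 3. Some peaks were near ties. For miR-200b-3p the counting intervals of the later libraries overlapped (4.85 to 9.02 and 5.03 to 8.34 CPM). Those of miR-200a-3p also did (3.54 to 7.22 and 3.35 to 6.15 CPM). How many of all miRNAs peaked in each library was not counted, so the peak counts here and below have no background.

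The 8 miRNAs known from neural and sensory tissue summed to 841, 1955 and 1861 CPM, with 3 at least 2-fold higher and 1 at least 2-fold lower on day 1, and 1 and 2 on day 3. The median log2 fold change of the 8 was 0.94 on day 1 and 0.02 on day 3, beside 0.90 and 0.93 for all miRNAs. Of the 8, 6 were highest on day 1, 1 on day 0 and 1, miR-7a-5p, on day 3. miR-204-5p had 665, 917 and 201 CPM, and miR-7a-5p had 54.4, 813 and 1499.6 CPM. The neuronal miR-124-3p was low in every library, with 16, 73 and 14 reads. The 8 myofiber miRNAs summed to 367981, 148909.9 and 299791 CPM. On each day 5 of these, not all the same ones, were at least 2-fold lower, and 2 were at least 2-fold higher on day 3. The myofiber list had a median log2 fold change of -1.32 (day 1) and -1.43 (day 3). By library of highest level, 5 of its miRNAs peaked before injury, 0 at day 1 and 3 at day 3. miR-1a-3p was lower on both days (233587, 73841 and 88096 CPM), and miR-206-3p was at 12384, 4781 and 180001 CPM. No marker list had a member at 0 reads in any library. The part of these cell types in the levels of the cluster was not tested.

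The libraries also hold a second deposited value, a score of whole numbers that never exceeds the read count. For the 3 members it was within 1 of the read count on days 0 and 1. On day 3 it was 2062 for miR-183-5p, 383 for miR-96-5p and 2273 for miR-182-5p, against 2103, 387 and 2320 reads. The shares of the members in this score stayed within the intervals of the shares in the reads in all 3 libraries.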

How the data were processed

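Small RNA libraries from pools of 4 samples, 1 library per time point, were sequenced by the authors on a BGISEQ instrument. The authors deposited for each mature miRNA a read count without normalization, and the processing notes name HISAT, Bowtie2 and the build GRCm38.p6. The authors also deposited a score whose making is not given in the sources used here. Neither strand nor multimapping settings are given in those sources.

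Read counts were divided by the library total and given as CPM. With 1 library per time point no replicate model can be fitted, so no test was made. A level has an exact Poisson interval, a ratio of reads a Wald interval on the log scale and a share a Wilson interval, all at 95%. PCR reads are not independent molecules, so intervals and the floor of 3 reads cover counting error only. For counts past a fold of 2, miRNAs with at least 10 reads in either library were used, and an miRNA at 0 reads in the reference library counted as past it.

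The members and all lists were chosen with earlier results of these data known. Named miRNAs were the members, the 3p arms, miRNAs with a member's seed and the 3 nearest in pattern. The 2 most abundant of each marker list and the members of 2 comparison clusters were also named. miR-124-3p, miR-146a-5p, miR-342-3p and the clusters of miR-532-5p, miR-206-3p, miR-34b-5p and miR-99b-5p were named after their values were seen. Alternatives were scaling by TMM (edgeR) or by median of ratios (DESeq2), a total without the 10 miRNAs with the most reads, the deposited score, 1 CPM added, minimums of 1 and 100 reads, a fold of 4 and clusters from the annotation. Scaling factors were computed in R 4.3.3 with DESeq2 1.42.0 and edgeR 4.0.16, intervals in scipy 1.17.1 under Python 3.11.15, tables with pandas 2.3.3 and numpy 2.4.6, and plots with matplotlib 3.10.9. Positions came from RefSeq on GRCm38.p6 and GENCODE M21.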

Additional observations from a re-analysis of the deposited data

Results flagged for a closer look

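miR-183-5p was lower on day 1 than on day 0, by a log2 fold change of -0.57 (-1.21 to 0.08), and higher on day 3, by 5.00 (4.62 to 5.38). It is listed here because the library of day 1 and that of day 3 lay on opposite sides of day 0. The day 1 interval contains 0 in CPM. With TMM or median-of-ratios factors the day 1 value was -1.51 or -1.61, below the lower end of that interval. Both changes share the day 0 library, and the difference between the days was not tested.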

How the results depend on the processing

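Of 111 values under alternative settings, 82 stayed within the counting interval of the reported value (within 1 SD for a median over clusters, at the same number for counts of members) and 29 did not. None of the log2 fold changes of the members changed sign. With TMM factors, miR-183-5p was at -1.51 on day 1 and 4.08 on day 3, and miR-182-5p at 0.58 and 4.30. With median-of-ratios factors, miR-183-5p was at -1.61 and 3.88, miR-182-5p at 0.48 and 4.10, and miR-96-5p at 4.47 on day 3. Without the 10 miRNAs with the most reads in the total, miR-183-5p was at 4.49 and miR-182-5p at 4.71 on day 3, and miR-182-5p at 0.91 on day 1. With 1 CPM added, miR-96-5p was at 4.47 on day 3. With the deposited score scaled to its total, miR-182-5p was at 0.88 on day 1 and, from day 1 to day 3, at 4.00. The scalings shift all miRNAs of a comparison by the same amount, -0.94 (TMM), -1.04 (median-of-ratios) and -0.62 (total without 10 miRNAs) on day 1 and -0.93, -1.12 and -0.51 on day 3, and leave the ratios between members as they are. The number of members at least 2-fold higher on day 1 was 1, miR-96-5p, under either of these factors or a fold of 4. The percentage of all miRNAs at least 2-fold higher on day 1 was 33.8 (180 miRNAs) with a fold of 4, 35.2 (187) under TMM and 33.1 (176) under median of ratios, against 55.3 (294). On day 3 it was 38.8 (221), 40.6 (231) and 36.6 (208), against 58.5 (333). From day 1 to day 3 it was 13.0 (76) with a fold of 4 and 32.6 (360 of 1104) with a minimum of 1 read, against 25.0 (146 of 583). A minimum of 1 read gave 551 and 630 miRNAs on days 1 and 3, and a minimum of 100 reads gave 152 on day 1, 57.4% of 340 miRNAs on day 3 and 87 from day 1 to day 3. With 1 CPM added and at least 10 reads in any library, 2 of the 3 nearest miRNAs were kept for miR-183-5p and for miR-182-5p and 0 for miR-96-5p. Depth most limits miR-96-5p, with 7 reads on day 0, and the 3p arms. No paired analysis was possible because each time point has 1 library.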
